A study of Mus musculus with 6 samples.

Results

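The Hox cluster genes were examined in mouse embryonic fibroblasts (MEFs) on Affymetrix Mouse Genome 430 2.0 arrays, with 3 wild-type and 3 Zmpste24-/- cultures and 1 array per culture. Members were all genes whose array symbol is Hox followed by the cluster letter a, b, c or d and a number, taken from probe sets that carry 1 symbol. This gave 33 genes out of 18194 named by a single symbol, with 9 in HoxA, 9 in HoxB, 7 in HoxC and 8 in HoxD. Of their 48 probe sets the brightest stood for each gene, and dim genes were kept. Wild-type cultures were Zmpste24+/+ and the others were homozygous for loss of Zmpste24. Both were C57BL/6, came from E13.5 embryos and were collected at passage 3. Zmpste24 is the protease that matures prelamin A, the precursor of lamin A in the nuclear lamina. The labels speak of 3 pairs of cultures and number each genotype 1 to 3, without saying what a number marks, which parts of the embryo were plated or whether a culture came from 1 embryo. If cultures shared a source, the p-values measure only the spread between these cultures.

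Hox genes encode homeodomain transcription factors that give cells their address along the head-to-tail axis. Within each of the 4 clusters, genes with low paralog numbers lie at one end and are expressed from more anterior levels, and genes with high numbers lie at the other end and are expressed posteriorly. The last genes of HoxA and HoxD also pattern the limb and its digits, and fibroblasts are known to keep much of the Hox code of their site of origin in culture. Members were grouped by paralog number as anterior (1 to 3, 7 genes), central (4 to 8, 12 genes) and posterior (9 to 13, 14 genes).

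Values are the deposited linear signal, scaled to the same trimmed mean on every array, and a difference is one of log2(signal + 16), which understates changes of dim genes. In these bulk samples fewer cells of a type and less RNA per cell cannot be told apart. Of the 33 members 27 were tested, since the dimmest 40% of all probe sets, those with a mean under 39.4, were left out. The dim members were Hoxa4, Hoxb1, Hoxb7, Hoxb13, Hoxd1 and Hoxd12. Hoxa4 lay just outside with a mean signal of 39.3, and the dimmest tested member was Hoxd3 with 51.1.

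The arrays numbered 1 stood apart in both genotypes, with a correlation of 0.985 between them over all tested probe sets and of 0.927 to 0.934 with the 4 arrays numbered 2 or 3. Zmpste24 had a signal of 3849.9, 2249 and 2043 in wild type and 365, 182 and 226 in Zmpste24-/-, listed in the order of cultures 1, 2 and 3 as for all genes here. All 3 wild-type values lay above all 3 Zmpste24-/- values. Xist, expressed from the inactive X of female cells, was at 5324, 69.3 and 43.7 in wild type and 6669, 4766 and 6660.1 in Zmpste24-/-. The Y-linked Eif2s3y was at 1.5, 531 and 1341 in wild type and 14.6, 10.4 and 15.7 in Zmpste24-/-, and so wild-type cultures 2 and 3 carried the male transcript and the other 4 cultures did not. Sex and genotype thus cannot be told apart in cultures 2 and 3, whereas both cultures numbered 1 were Xist-positive. Within wild type, sex and culture number cannot be told apart between number 1 and numbers 2 and 3. The tests of number 1 and of its interaction with genotype both use that wild-type difference. The 16 fibroblast markers on the array were all above the dim limit on every array, and their summed signal was 168016 to 170128 in the cultures numbered 1 and 141942 to 159131 in the others.

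Central Hox genes of HoxA, HoxB and HoxC were higher in culture 1 than in cultures 2 and 3 of both genotypes. No HoxD gene passed the test at the main settings, and the difference between clusters was not tested. In limma with terms for genotype and culture number, 12 of the 27 tested members rose in number 1 against the mean of numbers 2 and 3 and 0 fell, where 25.4% of all 27022 tested probe sets were called higher and 22% lower. The 12 were Hoxa3, Hoxa5, Hoxa7, Hoxa10, Hoxb3, Hoxb4, Hoxb5, Hoxb6, Hoxc4, Hoxc5, Hoxc6 and Hoxc8. They comprised 9 of 10 tested central genes, 2 of 5 tested anterior genes and 1 of 12 tested posterior genes, HoxD included. The central gene not called was Hoxd8. Leaving HoxD out gives 9 of 9 central genes, a grouping that was not planned. The F test over the 3 numbers called 12 of 27 members, a share close to the background of 41.6%. The median difference was 0.39 over the 33 members and 0.04 over all tested probe sets. This contrast was chosen with the standing apart of number 1 already known. With either culture numbered 1 left out, number 1 rests on 1 array, and fewer of all tested probe sets were called. Without Zmpste24-/- culture 1 the count of higher members was 7 (Hoxa5, Hoxa7, Hoxa10, Hoxb6, Hoxc6, Hoxc8 and Hoxd10), and without wild-type culture 1 there were 3 lower members (Hoxa11, Hoxd8 and Hoxd13). When probe sets of 1 gene were averaged in place of taking the brightest, Hoxa3, Hoxa10 and Hoxc6 were no longer called.

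**Figure D1:**
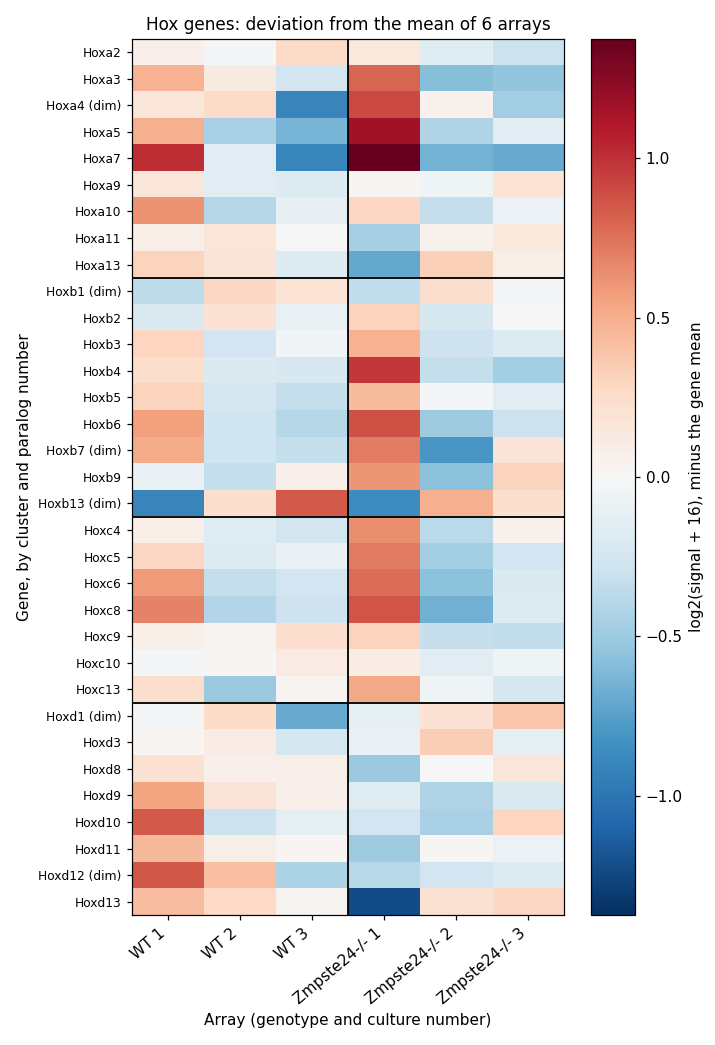
Log2(signal + 16) of each of the 33 Hox genes (rows, by cluster and paralog number) on each of the 6 arrays (columns), minus the gene's own mean over the arrays. Red marks arrays above and blue arrays below that mean. Central genes of HoxA, HoxB and HoxC are red in both columns of culture 1, and in the Zmpste24-/- culture numbered 1 the last HoxA and HoxD genes are blue.

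Hoxa7, a central gene of HoxA that helps pattern the thoracic axial skeleton, had the largest rise among the members. Its signal was 805, 349 and 202 in wild type and 1036, 242 and 236 in Zmpste24-/-. Both cultures numbered 1 lay far above the other 4, by 3.58-fold in mean signal, and the log2 difference was 1.79 (SE 0.18, limma adjusted p = 1.1e-04). The 250 bases upstream of its annotated start are shown because it leads this group (RefSeq, GRCm38.p6, chr6:52218574-52218823, minus strand, 5′ to 3′, 54.8% G+C). No motif searched here was found in them.
Hoxa7: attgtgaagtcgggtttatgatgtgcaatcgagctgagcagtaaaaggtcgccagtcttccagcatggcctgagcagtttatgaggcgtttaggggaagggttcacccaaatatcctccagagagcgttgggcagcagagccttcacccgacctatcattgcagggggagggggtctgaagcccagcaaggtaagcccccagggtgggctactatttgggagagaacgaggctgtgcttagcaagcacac

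Hoxa5, which acts in lung and thoracic development, was at 1326, 685 and 596 in wild type and 2112, 703 and 850.1 in Zmpste24-/-. The cultures numbered 1 were again the highest of each genotype, with a log2 difference of 1.23 (SE 0.13, limma adjusted p = 1.7e-04). Its second probe set rose too, by 1.36. Hoxa3, which patterns pharyngeal arch derivatives, was at 343, 265 and 199 in wild type and 432, 157 and 162 in Zmpste24-/- and differed by 0.95 (SE 0.20, limma adjusted p = 0.0056). The 2 further tested probe sets of Hoxa3 were not called, with 0.44 (limma adjusted p = 0.0826) and 0.07 (limma adjusted p = 0.837). Hoxa10, a posterior gene of limb and uterus development, was at 1264, 621 and 758 in wild type and 999, 655 and 773 in Zmpste24-/-. It differed by 0.67 (SE 0.12, limma adjusted p = 0.00183) and was the only posterior member called in this contrast.

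In HoxB, Hoxb6 had a signal of 734, 406 and 372 in wild type and 918, 346 and 398 in Zmpste24-/-. Its cultures numbered 1 did not overlap the others, and the difference was 1.08 (SE 0.14, limma adjusted p = 3.4e-04). Hoxb4, a factor known for its effect on blood stem cells, was at 309, 223 and 219 in wild type and 522, 202 and 183 in Zmpste24-/-, a difference of 0.91 (SE 0.21, limma adjusted p = 0.0072). Its second probe set rose by 1.16 (limma adjusted p = 0.00891). Hoxb3, a hindbrain and neck-level gene, was at 688, 461 and 541 in wild type and 783, 454 and 485 in Zmpste24-/- and differed by 0.59 (SE 0.12, limma adjusted p = 0.00372). A second Hoxb3 probe set gave 0.46 and was not called (limma adjusted p = 0.107). Hoxb5, a gene of shoulder-level patterning, was at 265, 179 and 165 in wild type and 292, 207 and 189.6 in Zmpste24-/-, which is 0.55 (SE 0.14, limma adjusted p = 0.0107). In each of these 4 genes the highest of the cultures numbered 2 and 3 stayed under both cultures numbered 1.

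Hoxb9, a posterior gene of the thorax, was the 1 member called by the F test and not by the contrast. It was at 394, 332 and 443 in wild type and 651, 279.8 and 526 in Zmpste24-/-. Cultures numbered 2 were the lowest of each genotype, number 2 minus number 3 was -0.64 (SE 0.21, limma adjusted p = 0.718), and number 1 against the others was 0.39 (SE 0.18, limma adjusted p = 0.118). No member was called between numbers 2 and 3, where 0.0074% of all probe sets were.

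In HoxC, Hoxc8, which patterns the thoracic skeleton and its motor neurons, was at 3739.6, 1757 and 1908 in wild type and 4243, 1465 and 2041 in Zmpste24-/-. It had the smallest adjusted p of the members, with a difference of 1.16 (SE 0.10, limma adjusted p = 5.2e-05) or 2.23-fold in mean signal. Hoxc6, a gene of the forelimb and thoracic levels, was at 1076, 562 and 591 in wild type and 1223, 475 and 616 in Zmpste24-/- and differed by 1.02 (SE 0.12, limma adjusted p = 2.2e-04). Of its 2 other tested probe sets, one rose by 1.27 and the other gave -0.05 (limma adjusted p = 0.955), so the probe sets of Hoxc6 disagree. Hoxc5, of the neck and forelimb levels, was at 728, 525 and 557 in wild type and 983, 424 and 494 in Zmpste24-/- and differed by 0.75 (SE 0.16, limma adjusted p = 0.0048). Its other probe sets gave 0.85 (limma adjusted p = 0.0203) and 0.41 (limma adjusted p = 0.0801), the second not called. Hoxc4 was at 529, 442 and 414 in wild type and 782, 381 and 518 in Zmpste24-/-, with 0.55 (SE 0.16, limma adjusted p = 0.0226), and its F test did not pass (limma adjusted p = 0.0546). All 7 HoxC genes were higher in number 1 by point estimate, and Hoxc10 turned lower under quantile normalization and under median centring, which leave 6 of 7 higher.

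**Figure D2:**
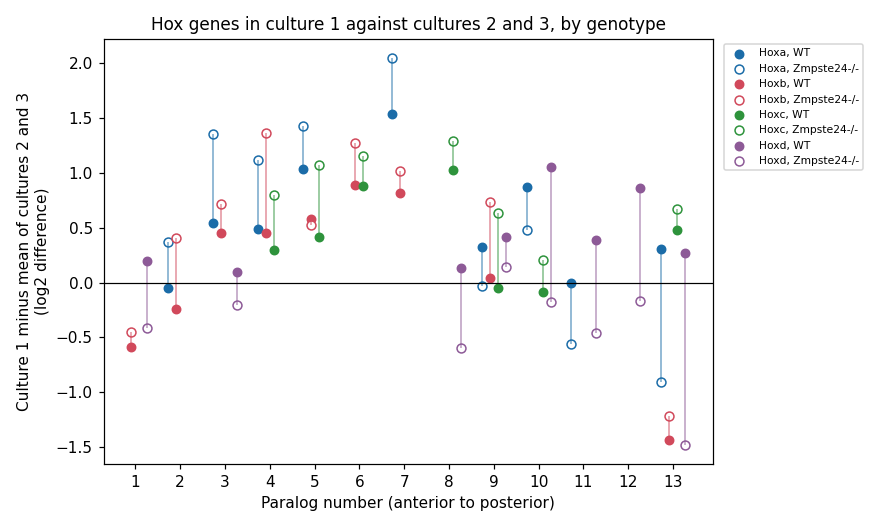
Culture 1 minus the mean of cultures 2 and 3 within a genotype, in log2(signal + 16), for each of the 33 Hox genes against paralog number (filled circles wild type, open circles Zmpste24-/-, colours for clusters, lines joining the genotypes of a gene). Central genes of HoxA, HoxB and HoxC lie above 0 in both genotypes, with Hoxa7 at 1.54 and 2.05, and Hoxd13 lies at 0.27 and -1.48.

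Including the dim Hoxa4 and Hoxb7, all 11 central genes of HoxA, HoxB and HoxC were higher in number 1, with a median of 0.92 and a range from 0.55 to 1.79. The second, dimmer probe set of Hoxa4 ran the other way, at -0.10, with 15.2, 15.04 and 10.6 in wild type and 1.41, 4.38 and 6.98 in Zmpste24-/-, all under the dim limit. By their brightest probe sets the 11 were all higher too under quantile normalization and median centring, with medians of 0.87 and 0.81. The median of these 11 was 0.81 within wild type and 1.15 within Zmpste24-/-. HoxD gave 3 higher and 5 lower of 8, a median of -0.05, and 0 of 6 tested members called. By median its genotypes went opposite ways, at 0.33 within wild type and -0.31 within Zmpste24-/-. The 1 central HoxD gene, Hoxd8, was at -0.23 (SE 0.17). The rank correlation of paralog number with this difference was -0.26 over the 33 genes (a description, since the genes share the same 6 arrays).

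Without overlap between the cultures numbered 1 and the other 4, 13 of 27 tested members were higher and 0 lower, against 31.2% and 27.2% of all tested probe sets. The 13 were the 12 called genes and Hoxc13, a hair and nail gene, at 135, 73.6 and 115 in wild type and 167, 106 and 92.1 in Zmpste24-/- (limma adjusted p = 0.0509). Among the dim members, Hoxb7 was at 34.7, 13.4 and 12.4 in wild type and 42.1, 4.45 and 24.1 in Zmpste24-/-, highest in number 1 of both genotypes. Hoxb13, the last HoxB gene, ran the other way, at 5.22, 30.2 and 55.3 in wild type and 5.75, 39.7 and 30.1 in Zmpste24-/-. Most of these signals lie under or near the dim limit, and neither gene was in the main test. With no filter Hoxb13 was called lower (limma adjusted p = 0.015) and Hoxb7 was not called (limma adjusted p = 0.0625).

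Between the genotypes no Hox gene passed the test. In limma without a block 0 of 27 members were called, as were 0 of all tested probe sets (0%). Zmpste24 itself, with a difference of -3.31, was not called in that fit and was called with the replicate block. A lack of calls without the block therefore does not show that a gene was unchanged. With culture number as a replicate block 0 members were called again, against 0.0185% of all probe sets, and the smallest adjusted p of a member was 0.443 in limma. At an unadjusted p under 0.05 there was 1 member without the block, against 1.29% of all probe sets, and 2 with it, against 8.99%. The median difference over the 33 members was 0.003, with 17 higher and 16 lower in Zmpste24-/-, and the difference furthest from 0 was -0.55, in the dim Hoxd12.

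**Figure D3:**
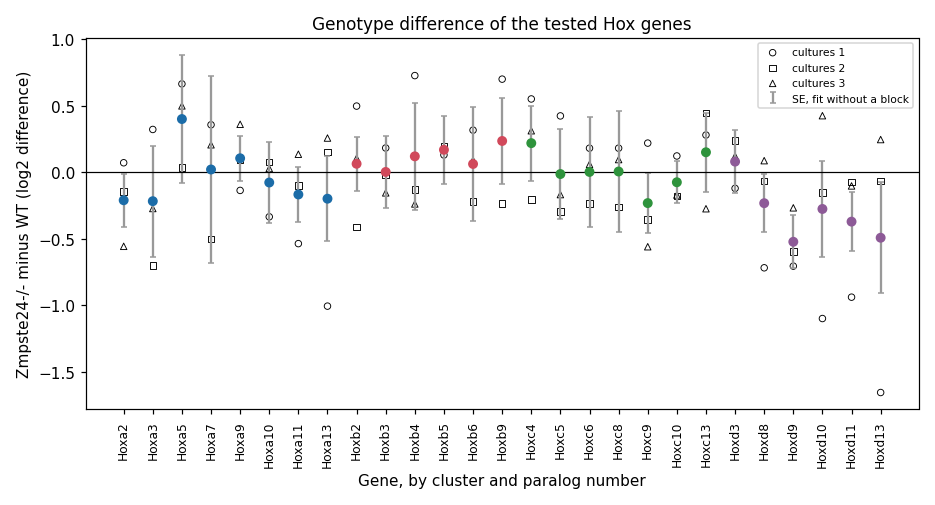
Zmpste24-/- minus wild type in log2(signal + 16) for the 27 tested Hox genes: filled points are the limma estimates without a block with their SE (blue HoxA, red HoxB, green HoxC, purple HoxD), and open symbols are the differences of the same-numbered cultures. All but 4 estimates (Hoxa5, Hoxd9, Hoxd11 and Hoxd13) lie within 0.3 of 0, Hoxd9 is at -0.52 with all 3 pairs below 0, and the cultures numbered 1 set Hoxd13 apart.

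Hoxd9, a posterior HoxD gene active in the proximal limb, had the smallest unadjusted p for genotype. Its signal was 238, 182 and 167 in wild type and 139.7, 115 and 136 in Zmpste24-/-. All 3 Zmpste24-/- values lay under all 3 wild-type values, and the difference was -0.52 (SE 0.20 without a block, and SE 0.16 with limma adjusted p = 0.443 with the replicate block), not past the threshold. Hoxd11, which shapes the forearm, was at 221, 169 and 161 in wild type and 108, 159.6 and 149 in Zmpste24-/-, also without overlap, a difference of -0.37 (SE 0.22). These were 2 of 27 members lower without overlap, against 3.03% of all tested probe sets, and 0 were higher without overlap, against 2.22%. Hoxa5 was the other member under an unadjusted 0.05 with the block, at 0.40 (SE 0.13 and limma adjusted p = 0.478 with the replicate block, SE 0.48 without it). Its estimate without a block turned to -0.08 without Zmpste24-/- culture 1, and its second probe set gave 0.001.

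The other members with the smallest unadjusted p for genotype overlapped between genotypes. Hoxa2, which patterns the hindbrain and a pharyngeal arch, was at 143, 133 and 165 in wild type and 151, 119 and 107 in Zmpste24-/-, a difference of -0.21 (SE 0.20). Hoxc9, a thoracic gene, was at 458, 442 and 507 in wild type and 536, 342 and 339 in Zmpste24-/-, a difference of -0.23 (SE 0.22). Probe sets of 1 gene differed in the sign of the genotype difference for 4 members, none of them called. For Hoxa3 it was -0.22 in the brightest, 0.30 and -0.53 in the other tested ones, the last with all Zmpste24-/- values under all wild-type values, and 0.70 in a dim one. For Hoxa4 it was 0.32 and -0.55, both dim. For Hoxc5 it was -0.01 in the brightest, and 0.09 and 0.12 in the others. For Hoxc6 it was 0.003 in the brightest, and -0.05 and -0.17 in the others. For Hoxd13, Hoxd8 and Hoxa11 the genotype difference rested on 1 array, as follows.

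Hoxd13, the last gene of HoxD and a factor of digit formation, was low on 1 array of the 6. Its signal was 1253, 1125 and 955 in wild type and 386, 1073 and 1136 in Zmpste24-/-, so 5 arrays lay between 955 and 1253 and the Zmpste24-/- culture numbered 1 was at 30.8% of the wild-type culture of its number. The second Hoxd13 probe set was lowest on the same array, at 154, 109 and 100.2 in wild type and 15.6, 122 and 112 in Zmpste24-/-. The value of 15.6 lies under the dim limit. The interaction, which is the change of number 1 against 2 and 3 in Zmpste24-/- minus that in wild type, was -1.75 (SE 0.22, limma adjusted p = 0.0532). This just missed the threshold, in a fit with 2 residual degrees of freedom that takes 1 array per genotype for number 1. It passed under a stricter dim filter of 60% (limma adjusted p = 0.0218), under median centring (limma adjusted p = 0.0300) and when any 1 of the 4 arrays numbered 2 or 3 was left out (limma adjusted p from 0.00726 to 0.0343). Under the other alternatives tried the limma adjusted p ran from 0.0517 to 0.639. Every one of these fits kept the low array. The settings under which Hoxd13 passed each called more of all probe sets than the main fit did, so passing there was not particular to Hoxd13. For genotype the Hoxd13 difference was -0.49 (SE 0.42), and 0.0001 without Zmpste24-/- culture 1. All 3 Zmpste24-/- cultures were Xist-positive, the low one included, and of the wild-type cultures only number 1 was. The wild-type part of the interaction therefore cannot be told apart from sex, whose part was not tested.

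Hoxa13, the HoxA paralog of Hoxd13 and its partner in the hand and foot, was lowest on the same array, at 89.97, 81.1 and 59.97 in wild type and 36.7, 92.03 and 74.8 in Zmpste24-/-. On that array Hoxa13 lay under the dim limit of 39.4. It was at 40.8% of the wild-type culture of that number, with an interaction of -1.21 (SE 0.49, limma adjusted p = 1.0). The upstream sequences of both genes are shown because Hoxd13 came closest to the threshold and Hoxa13 is its paralog; Hoxa11 and Hoxd11 were likewise each lowest on that array (RefSeq, GRCm38.p6, 5′ to 3′). Capitals mark matches to CCAAT and to TATAAA, the latter on both strands in overlap. Hoxd13 covers chr2:74667975-74668224 on the plus strand, and its matches start 212, 126 and 124 bases before the annotated start. Hoxa13 covers chr6:52260881-52261130 on the minus strand, with its CCAAT match 36 bases before the start. The G+C content was 74.4% and 80.0%, against 54.8% for Hoxa7.
Hoxd13: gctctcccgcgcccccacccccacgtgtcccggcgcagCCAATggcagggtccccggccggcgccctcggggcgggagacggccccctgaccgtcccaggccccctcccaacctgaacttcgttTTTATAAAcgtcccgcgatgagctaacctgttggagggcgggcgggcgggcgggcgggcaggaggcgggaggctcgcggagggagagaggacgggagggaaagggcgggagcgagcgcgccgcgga
Hoxa13: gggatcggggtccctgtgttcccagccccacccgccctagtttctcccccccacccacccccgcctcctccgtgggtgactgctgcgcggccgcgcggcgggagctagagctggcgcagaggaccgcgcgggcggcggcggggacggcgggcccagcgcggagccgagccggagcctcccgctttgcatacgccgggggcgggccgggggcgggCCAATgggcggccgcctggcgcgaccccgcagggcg

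Motifs were searched on both strands in the 250 bases upstream of every gene in the RefSeq table, 27025 promoters in all. CCAAT was found in 10 of the 19 Hox genes with a promoter there and in 34.5% of all promoters. TATAAA was found in 1 of 19, Hoxd13, and in 12.97% of all. The PBX-HOX site TGATTNAT, at which Hox proteins bind with their partners, was found in 1 of 19, Hoxa2, and in 2.99% of all. The CDX site TTTATNG was found in 0 of 19 and in 10.2% of all, which says only that these letters are not in these windows.

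The interaction was negative in the other HoxD genes too. Hoxd10, a gene of the forearm and hindlimb motor neurons, was at 509.8, 223 and 251 in wild type and 229, 199 and 343 in Zmpste24-/-, highest in wild-type culture 1, with an interaction of -1.24 (SE 0.41, limma adjusted p = 0.839). Hoxd11, given with its signals for genotype, had an interaction of -0.85 (SE 0.33, limma adjusted p = 0.985). Hoxd8 was at 616, 558 and 562 in wild type and 368, 532 and 599 in Zmpste24-/-, with -0.73 (SE 0.24, limma adjusted p = 0.818) and Zmpste24-/- culture 1 the lowest of the 6. Hoxd12, which is dim, was at 64.5, 43.2 and 17.04 in wild type and 18.1, 21.03 and 23.5 in Zmpste24-/- and highest in wild-type culture 1. Hoxa11, the HoxA gene of the forearm, was at 520.0, 552 and 495 in wild type and 353, 514 and 545 in Zmpste24-/-, with -0.55 (SE 0.24, limma adjusted p = 1.0). None of these passed the adjusted threshold.

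**Figure D4:**
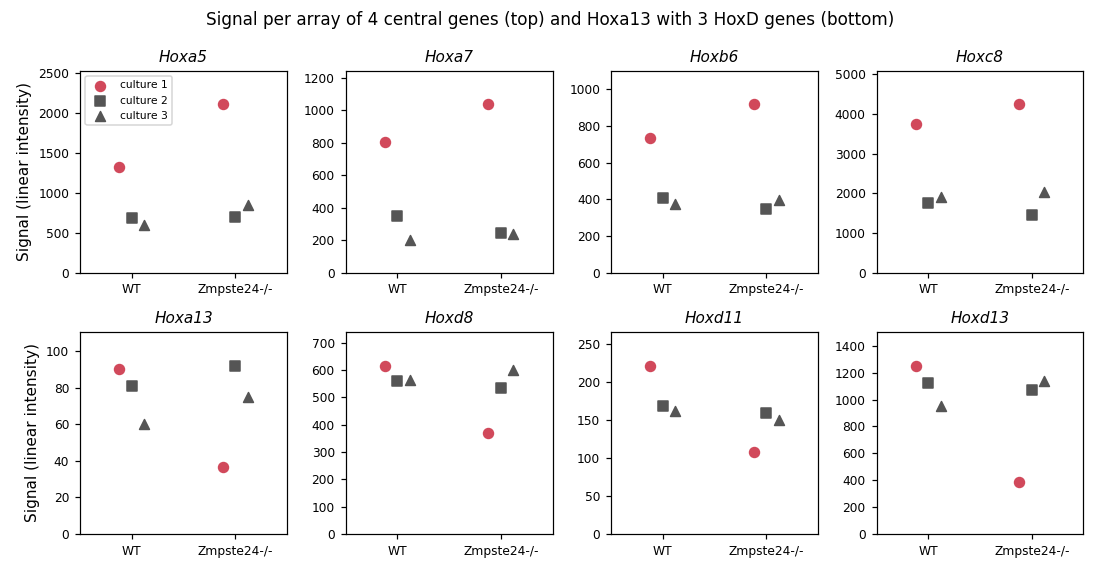
Linear signal on each array for Hoxa5, Hoxa7, Hoxb6 and Hoxc8 (top) and Hoxa13, Hoxd8, Hoxd11 and Hoxd13 (bottom), by genotype, with red circles for culture 1, squares for culture 2 and triangles for culture 3. In the top row both cultures numbered 1 are highest; in the bottom row culture 1 is highest in wild type and lowest in Zmpste24-/-.

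Between the cultures numbered 1, all 8 HoxD genes were lower in Zmpste24-/-, with a median of -0.83, as were all 4 posterior HoxA genes, and these counts stayed the same under median centring. All 9 HoxB and all 7 HoxC genes were higher in that pair, of which 7 and 7 were higher under median centring. In pairs 2 and 3 the HoxD medians were -0.07 and 0.18, with 7 and 2 of the 8 genes lower. In the same pairs 7 and 4 of 9 HoxB genes and 6 and 4 of 7 HoxC genes were lower. Of all 33 members 12, 25 and 12 were lower in pairs 1, 2 and 3. The shares of all probe sets in these directions were not counted. Each pair is 1 array against 1, with no replicate check. In the interaction fit all 8 HoxD genes were negative and all 7 HoxC genes positive, also under quantile normalization and median centring. No member was called, against 0.0259% of all probe sets. At an unadjusted p under 0.05 there were 6 lower members, against 2.01% of all probe sets, namely Hoxa11, Hoxa13, Hoxd8, Hoxd10, Hoxd11 and Hoxd13. There were 5 higher, against 2.58%, namely Hoxa3, Hoxb2, Hoxb4, Hoxc5 and Hoxc9, of which only Hoxb4 stayed under 0.05 with median centring. With the mean of probe sets Hoxd8, Hoxa3, Hoxb4 and Hoxc5 were no longer under 0.05, and Hoxc6 was. The interaction had another sign in other probe sets of 4 members, at -0.70 in a dim one of Hoxa3, -0.43 in the dim second one of Hoxa4, -0.01 in the second one of Hoxb4 and -0.03 in 1 of the others of Hoxc5. For Hoxc6 it was 0.27 in the brightest and 3.21 (limma adjusted p = 0.657) in the probe set that disagreed for number 1.

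Culture 1 lay above both others in wild type and below both in Zmpste24-/- for 4 of 27 tested members, Hoxa13, Hoxd8, Hoxd11 and Hoxd13, against 3.13% of all probe sets. The reverse held for 2 members, Hoxb2 and Hoxc10, against 4.86%. In the second tested probe set of Hoxd8 the pattern did not hold, with wild-type culture 1 between the others. That probe set was at 164, 132 and 208 in wild type and 88.1, 122 and 166 in Zmpste24-/-, with an interaction of -0.59 (SE 0.45). Hoxb2, a hindbrain gene, was at 724, 955 and 776 in wild type and 1029, 714 and 836 in Zmpste24-/-, with 0.65 (SE 0.25, limma adjusted p = 0.988). Hoxc10, a gene of the lumbar level, was at 581, 598 and 639 in wild type and 634, 528 and 566 in Zmpste24-/-, with 0.30 (SE 0.23, limma adjusted p = 1.0).

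Hoxa9, an axial and limb gene, was at 1160.1, 929 and 914 in wild type and 1054, 991 and 1178 in Zmpste24-/- and had differences of 0.15 for number 1 and 0.11 for genotype. Hoxd3 was at 51.6, 55.5 and 40.1 in wild type and 46.1, 68.4 and 45.1 in Zmpste24-/-, near the dim limit on every array. The dim Hoxb1 and Hoxd1 had signals from 13.6 to 29.9 and from 1.58 to 21.00. The dim Hoxa4 was at 41.4, 45.3 and 11.4 in wild type and 80.1, 37.2 and 20.7 in Zmpste24-/-.

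Of 4 tested noncoding genes inside the clusters, 3 rose in number 1 and 0 fell. Hoxb5os, an antisense gene of HoxB, was at 2219.9, 832 and 661 in wild type and 2721, 643 and 857 in Zmpste24-/- and differed by 1.71 (SE 0.15, limma adjusted p = 5.7e-05). Gm15050, inside HoxA, was at 852, 452 and 424 in wild type and 730.5, 489.8 and 388 in Zmpste24-/- and differed by 0.83 (SE 0.12, limma adjusted p = 6.3e-04). Hoxd3os1, inside HoxD, was at 127, 33.9 and 58.7 in wild type and 93.7, 59.4 and 90.7 in Zmpste24-/- and differed by 0.76 (SE 0.27, limma adjusted p = 0.0464). Hoxa11os was at 373, 387 and 358 in wild type and 217, 532 and 431 in Zmpste24-/-, lowest in Zmpste24-/- culture 1 like Hoxa11, with -0.54 (SE 0.23, limma adjusted p = 0.084) for number 1. Of 39 tested genes starting within 500 kb of the outermost Hox genes, 9 rose and 12 fell in number 1. Among all tested probe sets 25.4% were called higher and 22% lower. The 4 with the smallest p were all lower. Hnrnpa1 differed by -1.28 (SE 0.06, limma adjusted p = 4.1e-06) and Itga5 by -1.72 (SE 0.09, limma adjusted p = 6.0e-06). Igf2bp1 differed by -1.87 (SE 0.10, limma adjusted p = 7.0e-06) and Cbx5 by -0.998 (SE 0.09, limma adjusted p = 5.1e-05). Evx2, the homeobox gene beside Hoxd13, was at 100.2, 113 and 135 in wild type and 37.4, 86.5 and 101 in Zmpste24-/-, lowest in Zmpste24-/- culture 1 with an interaction of -0.77 (SE 0.42, limma adjusted p = 1.0).

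Genes of the Hox pathway were taken from lists of partners, inputs and chromatin regulators. Their counts stand beside 25.4% of all tested probe sets called higher in number 1 and 22% called lower. Of 8 tested cofactors, the PBX, MEIS and PREP proteins that bind DNA with Hox factors, 1 rose in number 1 and 0 fell. This was Pbx2, at 1701, 1046 and 1096 in wild type and 1669, 1073 and 1163 in Zmpste24-/-, a difference of 0.62 (SE 0.08, limma adjusted p = 5.6e-04). Of 12 tested upstream genes, which include retinoic acid and hindbrain regulators, 2 rose and 4 fell. Aldh1a1, a retinoic acid producing enzyme, was at 588, 262 and 361 in wild type and 362, 73.6 and 203 in Zmpste24-/- and rose by 1.16 (limma adjusted p = 0.00205). Rarg, a retinoic acid receptor, rose by 0.43 (limma adjusted p = 0.00913). Egr2, a hindbrain regulator of Hox genes, was at 43.1, 289 and 261 in wild type and 9.75, 176 and 234 in Zmpste24-/- and differed by -2.70 (SE 0.23, limma adjusted p = 5.1e-05), and the retinoic acid binding protein Crabp1 differed by -1.05 (SE 0.19, limma adjusted p = 0.00237).

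Polycomb genes, whose products keep Hox genes silent, numbered 28 tested, with 7 higher and 10 lower in number 1. Ezh2, the histone H3 methyltransferase of this group, was at 522, 1377 and 1652 in wild type and 668, 1962 and 1863 in Zmpste24-/- and differed by -1.50 (SE 0.10, limma adjusted p = 1.5e-05). Phc2 differed by -0.89 (SE 0.08, limma adjusted p = 4.7e-05). Cbx6 and Phc3 rose, by 1.14 (limma adjusted p = 2.5e-05) and 1.004 (limma adjusted p = 1.7e-04). Of 14 tested trithorax genes, which keep Hox genes active, 2 rose and 5 fell. The leading ones were Dpy30 at -0.997 (SE 0.08, limma adjusted p = 4.0e-05) and Wdr5 at -1.05 (SE 0.09, limma adjusted p = 5.0e-05), both parts of the H3 methyltransferase complexes. Read against 25.4% and 22% of all probe sets, these shares are a description of the lists and no test.

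Of 20 tested limb and positional genes 6 rose and 1 fell in number 1, against 25.4% and 22% of all tested probe sets. Shox2, a gene of the proximal limb, was at 2699, 1083 and 1224 in wild type and 2515, 1283 and 1561 in Zmpste24-/- and differed by 1.02 (SE 0.11, limma adjusted p = 1.3e-04). Meox2, Irx3 and Gli3 also rose, by 1.27 (limma adjusted p = 0.0011), 0.66 (limma adjusted p = 0.00225) and 0.46 (limma adjusted p = 0.00201). Tbx5, the forelimb T-box gene, was at 327, 154 and 148 in wild type and 18.6, 98.03 and 126 in Zmpste24-/-, lowest by far in Zmpste24-/- culture 1, with an interaction of -2.91 (SE 0.39, limma adjusted p = 0.0666). En1, a gene of the ventral limb, was at 311, 167 and 172 in wild type and 180.5, 98.9 and 103 in Zmpste24-/- and had a genotype difference of -0.69 that did not pass the test. Of 8 tested genes of the head mesenchyme, which is largely free of Hox expression, 0 rose and 1 fell, Dlx2 at -0.83 (SE 0.15, limma adjusted p = 0.00201). No gene of these lists or beside the clusters was called between genotypes, with or without the replicate block.

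Summed macrophage, mitosis, skeletal muscle and epithelial markers in number 1 did not overlap the other cultures. Endothelial, cartilage, and neural and glial sums did overlap. The summed signal of 15 macrophage markers was 9304 in wild-type and 17061 in Zmpste24-/- culture 1, and 1852 to 3051 in the other 4. Of 14 tested, 13 rose in number 1, while Itgam was under the dim limit on all arrays. The 11 mitosis markers, a list appended after the data were seen, summed to 6544 to 6548 in number 1 and 24180 to 28077 in the others, and 11 of 11 fell, with a median of -2.13. Skeletal muscle markers summed to 1075 to 1373 in number 1 and 2732 to 4979 in the others, with 7 of 15 under the dim limit on all arrays, Myf5, Myog and Pax7 among them. Among 6 tested muscle markers 4 fell and 0 rose, and the median over the list was -0.27. Epithelial markers summed to 811 to 905 and 3234 to 3658, with Cdh1, Krt14, Krt15 and Esrp1 under the dim limit on all arrays. Only 2 of 6 tested epithelial markers fell and 0 rose, and the median over the list was -0.09. Endothelial and cartilage sums were 1457 to 1707 and 1716 to 2024 in number 1, and 1611 to 1820 and 1200.1 to 2049 in the others, with Pecam1, Tie1 and Matn1 dim throughout. Neural and glial sums were 1992 to 3720.0 in number 1 and 3399 to 3937 in the others. The part of any of these markers in the Hox differences was not tested.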

How the data were processed

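RNA of 3 wild-type and 3 Zmpste24-/- cultures was measured on 1 array each. The authors deposited 1 intensity per probe set on a linear scale. The submitters' processing notes name GCOS, the Affymetrix operating software, and its version and algorithm were not given in the sources used here. After 2% of probe sets is trimmed from each end, each array has a mean of 500, so a change in total RNA per cell cannot be seen. Median signal per array was 56.1 to 70.3, and the number of arrays limits the precision. The arrays' design names the genes, and 64 control probe sets were left out of the table, leaving 45037. The 3 probe sets that carry several Hox symbols were left out as members.

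Values as log2(value + 16) were tested in R 4.3.3 with limma 3.58.1, its variance following intensity, after leaving out the dimmest 40% by mean over 6 arrays. Adjusted p-values are Benjamini-Hochberg over all 27022 probe sets tested, with a threshold of 0.05. An SE is limma's. Genotype was fitted without a block. Culture number was tested in a fit with genotype, and its interaction with genotype as number 1 against the others. The cultures that share a number deviated together from their genotype's mean (correlations of 0.83, 0.59 and 0.57, above a limit of 0.1). The replicate block and the same-numbered differences take the numbers as pairs, and the main genotype fit does not. Numbers 2 and 3 also correlated across, at 0.49 and 0.55, so the check mainly sets number 1 apart. It does not settle that the cultures numbered 2, or those numbered 3, are pairs. Scripts were checked on simulated data.

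The members, gene lists and contrasts were chosen with earlier results of these data known. All members are named, with every array's value for those called in the number test and the 8 with the smallest genotype p. From each list up to 4 genes by smallest p in the number test and 2 by smallest p for genotype could be named, and other probe sets of a member are given where sign or call differs. Figures were drawn with matplotlib 3.10.9.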

Additional observations from a re-analysis of the deposited data

Results flagged for a closer look

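In 6 tested members the culture numbered 1 lay on one side of both others in wild type and on the other side in Zmpste24-/-. The interaction, as a log2 difference, was -1.21 for Hoxa13, -0.73 for Hoxd8, -0.85 for Hoxd11 and -1.75 for Hoxd13, and 0.65 for Hoxb2 and 0.30 for Hoxc10. The dim Hoxd12, not tested, had the same pattern at -1.03, whereas the second tested probe set of Hoxd8 did not have it. None passed the threshold in the limma fit at its main settings, and each rests on 1 array per genotype for number 1. Hoxd13 came closest, with limma adjusted p = 0.0532. The macrophage marker sum was 9304 in wild-type and 17061 in Zmpste24-/- culture 1, and wild-type cultures 2 and 3 alone carried Y-linked transcripts. Within wild type, sex cannot be told apart from number 1 against numbers 2 and 3. The part of macrophage markers or of sex in these differences was not tested.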

How the results depend on the processing

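Alternatives were pseudocounts of 1 and 64, no dim filter or one of 60%, median centring, quantile normalization, array weights, no intensity trend, a threshold of 0.1, the mean over probe sets of 1 gene, the replicate block, cultures 2 and 3 alone, no genotype term, and each array left out. Leaving out arrays numbered 2 or 3, and the mean of probe sets, were added for the interaction after the data were seen. No Hox gene was called for genotype under any of them, though over all probe sets the count of 0 became 1 with array weights, 5 with the replicate block, 20 with cultures 2 and 3 alone, and 0 to 4 with 1 array left out. The block changed no call of a Hox gene. For number 1 the 12 higher members became 7 to 13 with 1 array left out, the 0 lower became 1 (Hoxb13) with no filter and 0 to 3 with 1 array left out. Hoxc4 was also lost without wild-type culture 3 and with no intensity trend, and Hoxb5 without either culture numbered 1. The members' median of 0.39 became 0.46 and 0.35 with pseudocounts 1 and 64, 0.29 with quantile normalization, 0.28 with median centring, 0.35 with the mean of probe sets, and 0.30 to 0.48 with 1 array left out. Median centring moved the median of all tested probe sets from 0.04 to -0.07. With the mean of probe sets, which tests fewer features, the F test called 7 members and 5674 of all, against 12 and 11253, and the number 1 contrast 6793 of all against 12800. For the interaction, 1 member (Hoxd13) was called with the 60% filter, with median centring, and with any 1 array numbered 2 or 3 left out. Over all probe sets its 7 calls became 2 with pseudocount 1, 0 with no filter or no intensity trend, 16 with the 60% filter, 19 with median centring, 3 with the mean of probe sets and 25 to 51 with 1 array left out. With cultures 2 and 3 alone, the genotype difference turned in sign for Hoxd13 (0.0899), Hoxd8 (0.0107) and Hoxa11 (0.0179). These were among the members with the smallest genotype p, and other members turned in sign too. Among those others, Hoxa13 went from -0.20 to 0.21, Hoxd10 from -0.28 to 0.14 and Hoxb4 from 0.12 to -0.18. With 1 array left out, the genotype difference ran from -0.76 to 0.0001 for Hoxd13. It ran from -0.0762 to 0.745 for Hoxa5 and from -0.28 to 0.0204 for Hoxa11. In each of those the turn came without Zmpste24-/- culture 1. The cause of the changes was not tested.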
